A study of Mus musculus with 2 samples.

Results

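A stretch of mouse chromosome 7 that holds 63 odorant receptor (Olfr) genes was examined, from the series' single table of 1112 Olfr entries. Members were chosen by position: every entry whose locus starts between 113.7 and 116.1 Mb of chromosome 7 (build mm9), except Olfr2, Olfr17 and Olfr6. RNA was sequenced from the olfactory epithelium of adult C57BL/6 mice. The 2 samples are both titled and genotyped as wild type, and the second is described as 3bko, a term that the sources used here do not explain. The deposited table gives 1 FPKM per entry (fragments per kilobase of gene model, scaled for the mapped fragments of the library). Each of its rows names 2 samples, wt and 3bko, and the FPKM is tied to neither. All levels below are therefore the authors' single values, with no replicates and no replicate error, and the depth is unknown. No difference between genes was tested against replicate spread, so each is a description of this 1 set of values. The table holds Olfr genes only, so the tissue could not be checked against markers of its cell types.

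Odorant receptors are G protein-coupled receptors with 7 membrane-spanning segments, and each mature olfactory sensory neuron expresses mainly a single receptor gene from a single allele. In RNA of the whole epithelium, the level of a receptor therefore joins the number of neurons that chose it and the amount of its RNA per neuron, which cannot be told apart here. Receptors fall into class I, first known from fish, and class II, the main class of mammals, and are grouped further by sequence into MOR families. The stretch is named for class II. By MOR family name, 61 of the 63 members were class II, and 2, Olfr503 (MOR34) and Olfr504 (MOR40), carried class I names.

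The odorant receptor family has a signature at the inner end of the third membrane segment. There, the aspartate, arginine and tyrosine of the so-called DRY motif help to couple the receptor to its G protein. Not all members encode the whole motif. The codons of this motif are shown because members at high and at low levels differed in them, as described further on. Each line gives 30 bases of the coding strand, read 5′ to 3′ from GENCODE M21 transcripts (GRCm38), and capitals mark the 3 codons at the place of the motif. Olfr705 and Olfr491 were the highest members of their families, Olfr472 is a close relative of Olfr474, Olfr502 and Olfr518 carry a phenylalanine codon at the third place, and Olfr504 carries an intact motif at a very low level. Olfr700, Olfr474, Olfr507 and Olfr503 encode another amino acid at the first or the second place.
Olfr705: atggcctatGACAGGTATgtggccatttgt
Olfr700: atggcctatGGCAGATATgtggctatttgt
Olfr491: atggcctatGACAGATATgttgctatttgc
Olfr472: atggcctatGATCGCTATgtagcaatctgt
Olfr474: atggcctatGATTGCTATgtagcaatctgt
Olfr502: atggcttatGACCGATTTatagcaatttgt
Olfr507: atggcttatGATCACTTCatggcaatctgt
Olfr518: atggcttatGACCGATTTgctgcaatctgc
Olfr504: atggcttttGACAGATATgtagctatttgc
Olfr503: atggctctgGACCACTATgtagccatttgc

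The median level in the cluster was below that of the other receptors. The second of its 2 blocks, described further on, was low, while the first was near the other receptors. The median FPKM was 0.657 over the 63 members (interquartile range 0.183 to 1.65), against 1.11 over the 1049 other entries (0.388 to 3.09) and 1.33 over the 924 other class II entries. On the log2(FPKM + 0.1) scale, which understates differences between low genes, the median of the members was 0.67 below that of the other entries. An FPKM of 1 or more was reached by 25 members (39.7%), against 52.5% of all entries. At a threshold of 5 there were 4 members (6.35%), against 14.3% of all entries. At the other end, 9 members (14.3%) lay under 0.1, against 8.63% of all entries. The authors' table marks 19 members (30.2%) NOTEST, against 18.3% of all entries. The highest NOTEST member had 0.256 and the lowest member with status OK had 0.168. Members made up 5.67% of the entries and held 3.08% of the summed Olfr FPKM, and 3 of them ranked among the 100 highest receptors.

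The receptors highest in the cluster were Olfr711 (MOR103, bases 114114882 to 114118965) at 10.1 FPKM, Olfr705 (MOR283, 114016807 to 114017757) at 9.83, Olfr695 (MOR283, 113857246 to 113859859) at 7.15 and Olfr491 (MOR204, 115460410 to 115461342) at 5.11. They ranked 59, 62, 100 and 154 among the 1112 entries. The next 6 were Olfr701 at 4.18, Olfr472 at 3.90, Olfr477 at 3.54, Olfr716 at 3.52, Olfr479 at 3.38 and Olfr706 at 3.34. At the bottom, Olfr474 (115098157 to 115099089) was listed at 0, as were 8 entries outside the cluster. Above it came the class I receptors Olfr504 (115708351 to 115709307) at 0.000592 and Olfr503 (115688041 to 115689012) at 0.0118. The other members under 0.1 were Olfr492 at 0.0216, Olfr519 at 0.0275, Olfr514 at 0.0278, Olfr480 at 0.0395, Olfr493 at 0.0544 and Olfr497 at 0.0911. The tenth lowest was Olfr507 at 0.112. Olfr483 had 0.173, a value also listed for Olfr963 on chromosome 9.

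Along the chromosome the members formed 2 blocks, separated by 666 kb without an Olfr entry between Olfr716 and Olfr467. No other gap between neighbouring members reached 100 kb. The first block, from Olfr693 to Olfr716, held 21 members with a median FPKM of 1.30 (interquartile range 1.05 to 3.34). The second, from Olfr467 to Olfr519, held 42 members with a median of 0.394 (0.117 to 0.816). The median was 1.11 over the 1049 other entries and 1.33 over the 924 other class II entries. That of the first block lay above the former and just under the latter, and that of the second block lay below both. The first block stood 1.51 above the second on the log2(FPKM + 0.1) scale. An FPKM of 1 or more was reached by 16 of the 21 members of the first block (76.2%) and 9 of the 42 members of the second (21.4%). The share was 53.3% over the 1049 other entries and 57.7% over the 924 other class II entries. The ranges overlapped widely, at 0.142 to 10.1 in the first block and 0 to 5.11 in the second. Each member under 0.1 lay in the second block.

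The blocks also differed in how the authors' gene models were drawn. In the first block 12 of 21 loci were as long as the coding sequence alone, against 39 of 42 in the second. This held for 51 of the 63 members and for 757 of the 1091 entries with a coding sequence in the whole table. Among those coding-only models the medians were 1.19 FPKM over 12 members of the first block and 0.419 over 39 of the second, a difference of 1.31 log2 units. The part of the remaining models in the block difference was not tested, nor was the part of the models in the difference between the cluster and the other entries.

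**Figure D1:**
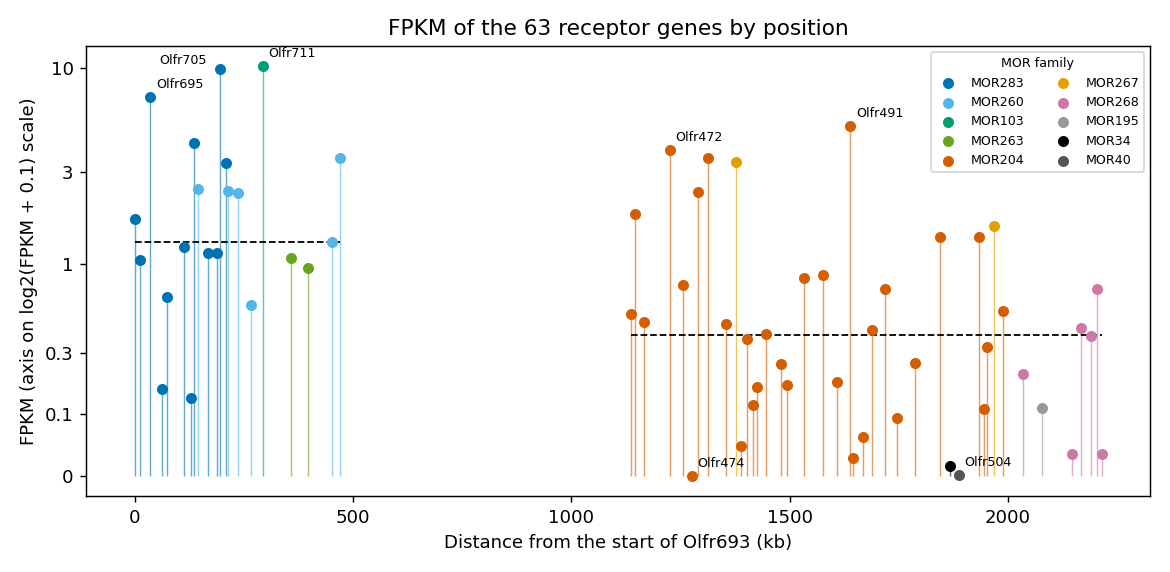
FPKM of each of the 63 members (vertical axis, spaced as log2(FPKM + 0.1)) against the distance of its start from that of Olfr693 in kb, coloured by MOR family, with dashed lines at the block medians of 1.30 and 0.394 FPKM. High and low receptors stand side by side in both blocks, and the members near 0 lie in the second block.

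Within a block, level followed position only weakly. Spearman's rho of FPKM with order along the chromosome was -0.51 over all 63 members, 0.17 over the 21 of the first block and -0.29 over the 42 of the second. Neighbouring members were not alike. Adjacency was taken among the members only. It therefore passes over Olfr6 between Olfr710 and Olfr711, Olfr2 between Olfr711 and Olfr713, and Olfr17 between Olfr714 and Olfr715. These pairs differed by 3.90, 3.12 and 0.43 log2 units, and rho with the left-out receptors in place was not computed. Across adjacent members rho was 0.13 over 62 pairs, and it was -0.23 over 20 pairs within the first block and -0.07 over 41 pairs within the second. Adjacent members of a block differed by a median of 1.63 log2 units (61 pairs), against 1.53 for members of a block that are not adjacent (1010 pairs). Neighbouring pairs share members and sequence, so these values are descriptions. The widest step between neighbours on the log2(FPKM + 0.1) scale lay between Olfr491 at 5.11 FPKM and Olfr492 at 0.0216. Their loci are 4.90 kb apart. Olfr695 at 7.15 was followed by Olfr697 at 0.168, Olfr479 at 3.38 by Olfr480 at 0.0395, and Olfr700 at 0.142 by Olfr701 at 4.18.

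The 3 receptors left out by the rule lie inside the first block. Olfr6 (M50) had 28.7 FPKM, Olfr17 (P2) 8.77 and Olfr2 (I7) 2.17, and with them the block difference was 2.04 log2 units. The ends of the stretch were set by position. The first member, Olfr693, had 1.71 FPKM and the last, Olfr519, 0.0275. The nearest Olfr entries outside it were the class I receptor Olfr692 at 0.314, 1.30 Mb before it, and Olfr522 at 2.02, 31.3 Mb beyond it.

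Each of the 10 MOR families in the stretch lay in 1 block, so family and block cannot be separated. The first block held MOR283, MOR260, MOR103 and MOR263, and the second held MOR204, MOR267, MOR268, MOR195, MOR34 and MOR40. Ligands of most of these receptors are not well established, and the families are named by sequence. Over the 4 families with at least 3 members (55 genes), 26.4% of the variance of log2(FPKM + 0.1) lay between families and the rest lay among members of a family. Between the 2 such families of the second block (37 genes) the share was 4.34%.

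MOR283 was the main family of the first block, with 12 members at a median of 1.19 FPKM. Its members spanned 0.142 to 9.83 FPKM. Olfr705 at 9.83 and Olfr695 at 7.15 led it, followed by Olfr701 at 4.18, Olfr706 at 3.34 and Olfr693 at 1.71. A middle group lay close together, with Olfr699 at 1.24, both Olfr703 and Olfr704 at 1.14 and Olfr694 at 1.05 FPKM. Below 1 were Olfr698 at 0.657, Olfr697 at 0.168 and Olfr700 at 0.142.

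MOR260 had the highest median of the 4 families, 2.37 FPKM over 6 members. That median is the midpoint of Olfr707 and Olfr1532-ps1, near copies whose values are not separate measurements, as described further on. The family's range was narrow, with Olfr716 at 3.52, Olfr702 at 2.45, Olfr707 at 2.39, Olfr1532-ps1 at 2.34, Olfr715 at 1.30 and Olfr710 at 0.588. The uniqueness of these genes was low: 3 of the 6 had under 80% of their coding 50-mers to themselves among Olfr transcripts, so reads could be shared. The same held for 367 of the 1091 entries with a coding sequence in the whole table. Olfr711 was the only MOR103 member once Olfr6 and Olfr2, of the same family, were left out, and 100% of its coding 50-mers were unique. The MOR263 pair, relatives of Olfr17, lay near 1, with Olfr713 at 1.08 and Olfr714 at 0.945 FPKM.

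MOR204 filled most of the second block, with 31 of its 42 members. Its median was 0.419 FPKM and its range 0 to 5.11, and 7 members reached 1. Apart from Olfr491, Olfr472 and Olfr477 these were Olfr476 at 2.36, Olfr469 at 1.83, Olfr506 at 1.39 and Olfr502 at 1.38. The 2 MOR267 receptors stood above most of their MOR204 neighbours, with Olfr479 at 3.38 and Olfr509 at 1.58. All 6 MOR268 receptors, at the far end of the stretch, were below 1, with a median of 0.301. Olfr518 had 0.723, Olfr516 0.431, Olfr517 0.388, Olfr512 0.215, Olfr514 0.0278 and Olfr519 0.0275 FPKM. Olfr513, the single MOR195 receptor, had 0.116.

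**Figure D2:**
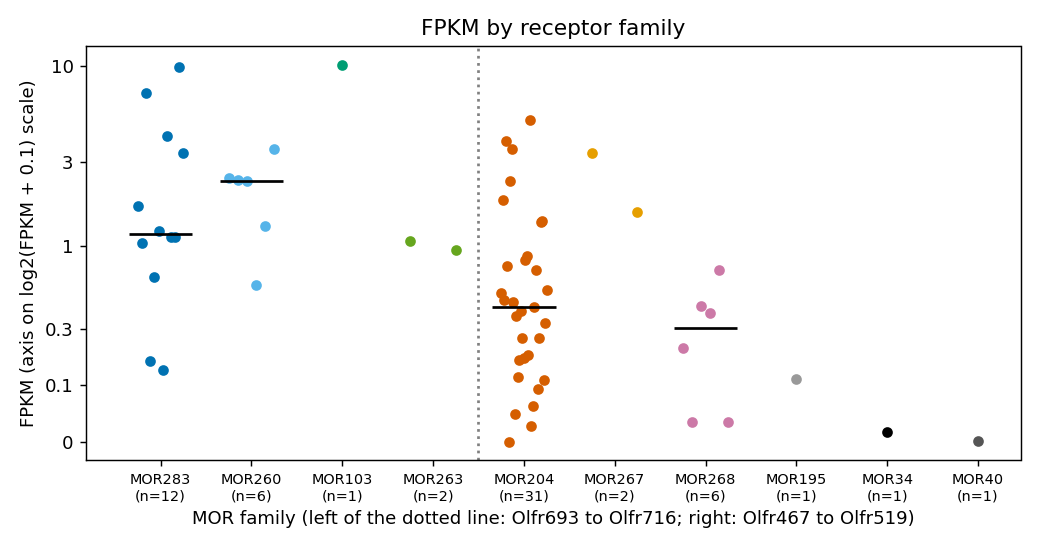
FPKM of each member (spaced as log2(FPKM + 0.1)) by MOR family, with points in chromosome order within a family and a bar at the median of each family of at least 3 members. The medians were 1.19 for MOR283, 2.37 for MOR260, 0.419 for MOR204 and 0.301 for MOR268, and MOR283 and MOR204 span the widest ranges of these 4 families.

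MOR204 was not uniform in sequence. The encoded proteins were 50.3% to 95.9% identical (median 69.4% over 465 pairs). Grouping all members by average identity with a limit of 70%, chosen after the values were seen, split MOR204 into groups of 21, 6 and 4 genes. At a limit of 65% there were 2 groups and at 75% there were 6. The group of 6 held the 4 highest members of the family, with Olfr491 at 5.11, Olfr472 at 3.90, Olfr477 at 3.54 and Olfr476 at 2.36 FPKM, together with Olfr473 at 0.768 and Olfr474 at 0. Its median was 2.95. Apart from Olfr491, they lie next to each other near the start of the block, from Olfr472 to Olfr477.

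The group of 21 had a median of 0.399 FPKM and a range of 0.0216 to 1.83. In it Olfr469, Olfr506 and Olfr502 reached 1. Olfr488 had 0.873, Olfr487 0.832, Olfr495 0.726, Olfr510 0.544, Olfr470 0.469, Olfr478 0.457, Olfr494 0.419 and Olfr484 0.399. The remaining 10 lay at 0.256 or below, with Olfr498 and Olfr485 both at 0.256, Olfr490 at 0.188, Olfr486 at 0.179 and Olfr482 at 0.122 beside those already given. The group of 4 had a median of 0.348, with Olfr467 at 0.523, Olfr481 at 0.369, Olfr508 at 0.328 and Olfr480 at 0.0395. Since the limit was set with the values in view, these group medians carry no test.

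Likeness in sequence went only weakly with likeness in level. Across the 1953 pairs of members, rho of protein identity with the absolute log2 difference was -0.16. Members of the same family differed by a median of 1.49 log2 units (563 pairs), those of another family in the same block by 1.57 (508 pairs), and those of different blocks by 2.08 (882 pairs). At 90% identity or more there were 10 pairs, with a median difference of 0.98. Olfr472 and Olfr473, 92.3% identical and adjacent, had 3.90 and 0.768 FPKM, and 97.7% and 93.0% of their coding 50-mers were unique. Olfr486 and Olfr487 were 95.9% identical and had 0.179 and 0.832. Olfr469 and Olfr470 were 93.9% identical and had 1.83 and 0.469. In these last pairs only 49.5% to 63.7% of the coding 50-mers were unique, so the split of reads between the copies is uncertain. By contrast Olfr694 and Olfr704, 94.3% identical, had 1.05 and 1.14.

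Olfr707 and Olfr1532-ps1 are near copies, and their values cannot be taken as separate measurements. Their coding sequences have the same length of 921 bases and differ at 10 of them, all between bases 764 and 917 counted from the start codon. Only 18.0% and 17.3% of their coding 50-mers were found in no other Olfr transcript, and their FPKM were 2.39 and 2.34. The symbol of the second marks a pseudogene, while GENCODE M21 gives it a coding sequence. The 30 bases that hold the most differences, bases 888 to 917 of the coding sequence, are shown with the 4 differing bases in capitals.
Olfr707: tgtgaaaggggcCctcaGgagaataactTT
Olfr1532-ps1: tgtgaaaggggcTctcaAgagaataactAC

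Of the 63 members, 33 encode the whole signature motif, and the 4 with an altered aspartate or arginine were all low. Relative to Olfr491, whose protein positions are used here, the first or second residue of the motif was altered in 4 members. These were Olfr700 (D121G) at 0.142 FPKM, Olfr507 (R122H and Y123F) at 0.112, Olfr503 (R122H) at 0.0118 and Olfr474 (R122C) at 0. Each had the status NOTEST, and all but Olfr700 are annotated with a single exon and no 5' UTR. The 33 members that encode the whole DRY motif had a median of 1.30 and a range of 0.000592 to 10.1, and 22 of them reached 1. A whole motif was thus also found in Olfr504 and Olfr480 at the bottom of the range. Olfr474 can be set beside Olfr472 in the sequences above, a member of the same group of 6 that encodes arginine at that place. Among the 1049 other entries, the same alteration of aspartate or arginine was found in 22, with a median of 0.0504 FPKM and 1 at FPKM 1 or more, against a median of 1.23 and 462 at FPKM 1 or more over the 824 that encode DRY. Single-exon genes, which were low as a class, made up 14 of those 22 entries and 72 of the 824. Among entries with 2 or more exons, the medians were 0.236 over 8 altered entries and 1.44 over 752 with DRY. Among single-exon entries they were 0.0408 over 14 and 0.0976 over 72. These comparisons were added after the values were seen.

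A phenylalanine at the third place (Y123F), with aspartate and arginine kept, marked 24 members. All of them lay in the second block, 18 in MOR204 and 6 in MOR268. Their median was 0.394 FPKM, their range 0.0216 to 1.83, and 3 reached 1 (12.5%). The whole second block, which includes these 24 members, had the same median, 0.394, and 21.4% of its members reached 1. Within MOR204 alone, the 18 members with phenylalanine had a median of 0.409 and the 9 with tyrosine had 0.768, with ranges that overlapped. The tyrosine members were of 2 kinds: 5 belong to the group of 6, at 0.768 to 5.11, and the other 4 are the group of 4, whose median of 0.348 lay below that of the phenylalanine members. Olfr486 and Olfr487 carry leucine there (Y123L), at 0.179 and 0.832. Among the other entries the medians were 0.901 over 130 with phenylalanine and 1.23 over 824 with tyrosine. Of these, 55 (42.3%) and 462 (56.1%) reached 1. Phenylalanine at this place was found in none of the first block's members, so between blocks the motif and the family cannot be told apart.

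**Figure D3:**
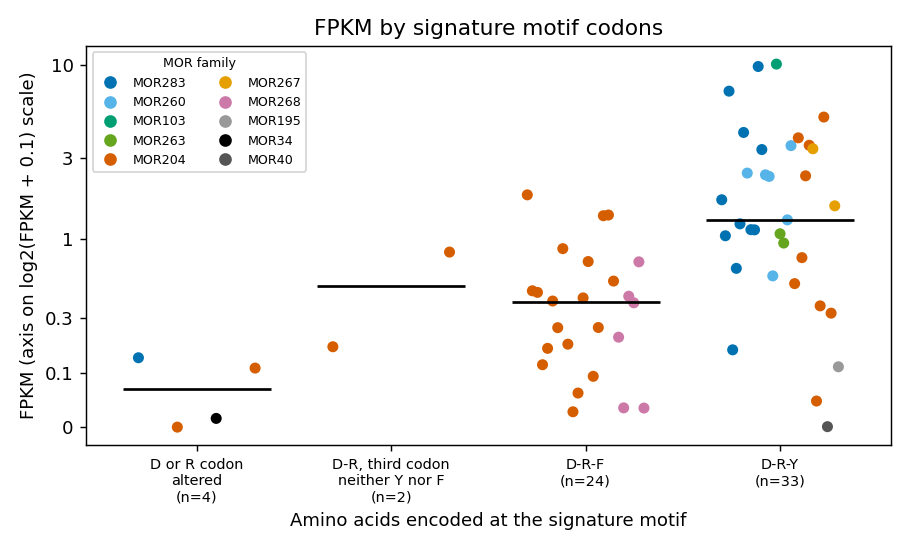
FPKM of each member (spaced as log2(FPKM + 0.1)) by the amino acids encoded at the signature motif, coloured by MOR family, with bars at the medians. The 4 members with an altered aspartate or arginine lie at 0 to 0.142, the 24 with phenylalanine at 0.0216 to 1.83, and the 33 with the whole motif span 0.000592 to 10.1.

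Receptor genes typically have a coding region in 1 exon and 1 or more short upstream exons that hold the 5' untranslated region (UTR). Members annotated with a single exon in GENCODE M21 were all low. The 13 single-exon members had a median of 0.0544 FPKM and a highest value of 0.328, that of Olfr508. The 34 members with 2 exons had a median of 0.724, and the 16 with 3 or 4 exons had 1.65. In the last set 12 of 16 (75%) reached 1, near the share of 68.8% (242 of 352) over all entries with 3 or more exons. Over the 1095 entries in GENCODE M21, the median was 0.0892 for the 119 single-exon genes. It was 1.05 for 624 genes with 2 exons and 1.73 for 352 with 3 or more. All 13 single-exon members lay in the second block. They were Olfr474, Olfr485, Olfr486, Olfr492, Olfr493, Olfr498, Olfr507 and Olfr508 of MOR204, Olfr512, Olfr514 and Olfr519 of MOR268, and the class I receptors Olfr503 and Olfr504. Among members with at least 2 exons, the medians were 1.30 over 21 members of the first block and 0.544 over 29 of the second.

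Members with a longer annotated 5' UTR had higher FPKM. No 5' UTR was annotated for 12 members, whose median was 0.0411. The 10 members with 42 to 91 nt had a median of 0.170, the 18 with 100 to 285 nt had 0.678, the 11 with 304 to 573 nt had 1.71 and the 12 with 601 nt or more had 2.90. In the last set 11 of 12 (91.7%) reached an FPKM of 1, all but Olfr518 at 0.723, against 152 of 212 entries (71.7%) with a 5' UTR of at least 601 nt in the whole table, whose median was 2.47. Over all entries the median was 0.0745 over 92 entries with no 5' UTR on record. These 92 include 17 entries that are not in GENCODE M21 by symbol, whose median was 1.86. The medians were 0.296 over 117 entries with 3 to 99 nt, 1.00 over 395 with 100 to 299 nt, and 1.55 over 296 with 300 to 599 nt. Among the members, Olfr711 had the longest 5' UTR, at 2075 nt, and Olfr705 had 711 nt. There were exceptions in both directions: Olfr491 had 5.11 FPKM with 204 nt, and Olfr700 had 0.142 with 439 nt. Spearman's rho was 0.68 over the 51 members with a 5' UTR, 0.45 over 21 in the first block, 0.72 over 30 in the second and 0.77 over 23 in MOR204. Over all entries it was 0.34 (1020 genes). For exon number rho was 0.64 over 63 members, 0.21 over the first block and 0.69 over the second, and 0.38 over 1095 entries.

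Exon numbers and UTR lengths are those of the annotation, and the evidence behind it was not examined. The coefficients are across genes that share sequence and the same libraries. The share of unique coding 50-mers went with level hardly at all, with rho at 0.08 over 63 members. Its median was 93.0% over the members and 92.1% over the other entries. Under 80% were 14 of the 63 members, against 367 of the 1091 entries with a coding sequence in the whole table.

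**Figure D4:**
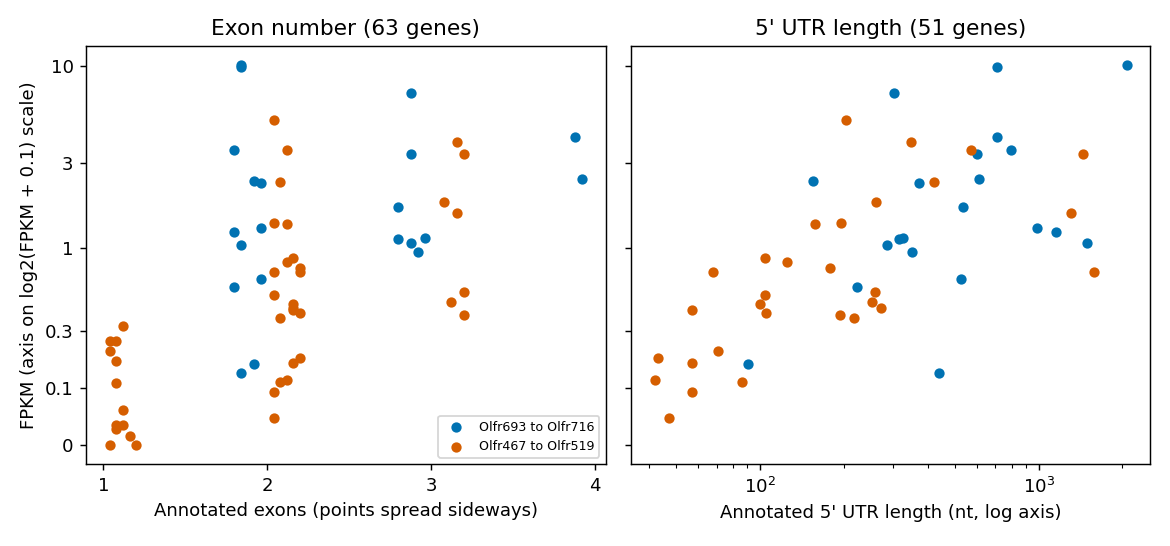
FPKM of each member (spaced as log2(FPKM + 0.1)) against the number of annotated exons (left, 63 genes) and the annotated 5' UTR length on a log axis in nt (right, 51 genes), coloured by block. The 13 single-exon members end at 0.328 FPKM, and members with a 5' UTR of 601 nt or more start at 0.723.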

How the data were processed

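Each Olfr entry has 1 FPKM, as the authors deposited it, per the file headers. The submitters' processing notes name TopHat2, Bowtie2, Cuffdiff and build mm9, without versions. The annotation, the library of a value and the handling of reads matching several genes are not stated by these sources. Locus starts count from 0 in the table, and 1 was added.

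The members, families and lists were chosen with earlier results of these data known. MOR families are synonyms in the RefSeq gene table (GRCm38.p6), which matched all 63 members by symbol. MOR1 to MOR42 were taken as class I. Exons, UTRs and coding sequences are those of the longest coding transcript in GENCODE M21 (GRCm38), which held 1095 of the entries by symbol. Coordinates are mm9, from the deposited table. Uniqueness is the share of coding 50-mers found in no other Olfr transcript. Coding sequences were translated and aligned globally (Biopython 1.88, BLOSUM62, gap costs 11 and 1), and identity counts gaps. Motif codons were placed by alignment to Olfr491, with 2 flanking residues aligned on each side. Names in the text are the 10 highest and 10 lowest members, the extremes of each family and block, NOTEST members and equal values. All other members named were chosen after their values were seen. Statistics used scipy 1.17.1 and were tested on simulated data. Both samples are labelled wild type and the deposited table gives 1 value per entry, so no test over samples could be made.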

Additional observations from a re-analysis of the deposited data

How the results depend on the processing

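The members' median stayed below that of the other entries under each alternative run. From -0.67 log2 units, the difference was -0.35 with a pseudocount of 1, -0.74 with 0.01, -0.57 among entries at FPKM 0.1 or more, -0.75 without pseudogenes, -0.92 against other class II entries, -0.65 among entries with at least 80% unique 50-mers, -0.55 with Olfr2, Olfr17 and Olfr6 and -0.55 without the class I members. The last 2, and the alternatives for the block difference and for the second block alone, were chosen after seeing the data. Members reaching the detection threshold numbered 35 at FPKM 0.5 and 14 at FPKM 2. The block difference of 1.51 was 1.30 at FPKM 0.1 or more, 1.45 with unique sequence, 2.04 with the 3 receptors left out by the rule, 0.73 with a pseudocount of 1, 1.70 with 0.01 and 1.31 among coding-only models. A gap limit of 50 kb between members gave 7 blocks. The gaps counted there include 60.7 kb from Olfr711 to Olfr713 and 53.6 kb from Olfr714 to Olfr715. The left-out receptors Olfr2 and Olfr17 lie in these gaps. A family minimum of 5 members kept the same 4 families.

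At FPKM 0.1 or more, rho was -0.42 with order, 0.12 between members adjacent among those kept and -0.085 for sequence likeness. It was 0.50 with exon number, 0.65 with 5' UTR length and 0.071 with unique 50-mers. With unique sequence, rho with order was -0.48. A pseudocount of 1 gave -0.15 for likeness. The share of variance between families was 25.04% and 24.6% with pseudocounts of 1 and 0.01, 19.6% at FPKM 0.1 or more, 25.96% with unique sequence and 4.34% in the second block. In that block rho was 0.69 with exon number, 0.72 with 5' UTR length and -0.016 with unique 50-mers. The last is reversed in sign from 0.083 over all members, but both values are very small. The sign change was not tested. No paired analysis was possible because the table holds 1 value per gene, and leaving out a replicate was not possible either. Because the depth is unknown, the counting error of the low values could not be given.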
